A study of Mus musculus with 12 samples.

Results

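The 10 genes described here encode lipoxygenases, cyclooxygenases and their partner enzymes: Alox12b, Aloxe3, Alox12, Alox8, Alox5, Alox5ap, Ptgs1, Ptgs2, Ptges and Hpgds. They were taken by gene symbol and are 10 of the 36400 gene rows in the table. All 10 were among the 21890 genes tested, because each had a mean of at least 0.1 FPKM (fragments scaled for transcript length and for library size) over the 12 libraries. The pair Alox12b and Aloxe3, which serve the skin barrier, was set beside the enzymes of prostaglandin and leukotriene synthesis over 4 groups.

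The libraries came from back skin of female BALB/c mice, 6 weeks old at purchase, collected on day 30, with 3 libraries in each group. No label says whether each library came from a separate mouse, so p-values measure the spread between libraries, which may be technical in part. All backs were shaved first. The control mice received only the vehicle, a mixture of acetone and olive oil. The mice of the other 9 libraries all received the hapten 2,4-dinitrochlorobenzene (DNCB), at 1% in 4 sensitizations and at 0.5% in 6 challenges, which gives a dermatitis used as a model of atopic dermatitis. For the DNCB mice no further treatment is stated, so whether they had injections without cells is not known. The scMSC mice also received 4 doses of 2000000 human umbilical cord mesenchymal stem cells (MSCs) in 100 µL under the dorsal skin. The scivMSC mice received the same number of cells split between a subcutaneous 50 µL and an intravenous 50 µL. The MSC groups therefore carry the DNCB exposure as well, and the cells were of another species. These are bulk samples, so fewer cells of a type and less RNA per cell cannot be told apart.

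Lipoxygenases add oxygen to polyunsaturated fatty acids. In the upper epidermis, Alox12b (12R-lipoxygenase) and Aloxe3 (epidermal lipoxygenase 3) act one after the other on the linoleate of acylceramides, a step needed to bind ceramides to the cornified envelope, and loss of either enzyme causes ichthyosis. Alox5, with its helper protein Alox5ap, begins leukotriene synthesis, chiefly in myeloid cells. The cyclooxygenases Ptgs1 and Ptgs2 turn arachidonic acid into prostaglandin H2, which Ptges converts to prostaglandin E2 and Hpgds to prostaglandin D2. Ptgs1 is classed as constitutive and Ptgs2 as inducible.

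Each library held between 63877153 and 75134001 estimated counts, and replicates of a group correlated at r = 0.928 to 0.957 on log2 values. Keratinocyte markers were present in all 12 libraries, with the 5 basal markers at summed levels of 8183 to 10463 FPKM in DNCB and 1755 to 5504 FPKM in the other 9. In the tests given below, 3 of these 5 markers were higher and 1 lower in DNCB against control, beside 12.9% and 12.4% of all genes. Fibroblast markers summed to 1261 to 1603 FPKM in DNCB and 107 to 719 FPKM in the other 9. Skeletal muscle markers were also present, at 12462 to 18272 FPKM in control and 3209 to 8999 FPKM in the other 9 libraries. Mitochondrial genes took 8.15% to 11.1% of counts in control libraries and 11.1% in scivMSC 3, against 4.00% to 6.26% in the other 8. What these differences add to the results was not tested.

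By mean level over the 12 libraries, Alox12b was the most abundant of the 10 genes at 23.5 FPKM, and Alox5 the least at 1.48 FPKM. Between them came Ptges (20.5), Aloxe3 (17.8), Alox5ap (17.4), Ptgs1 (16.4), Alox8 (6.43), Ptgs2 (5.53), Alox12 (4.14) and Hpgds (3.32), all in FPKM. The ranges of neighbours in this order overlapped over the libraries.

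**Figure D1:**
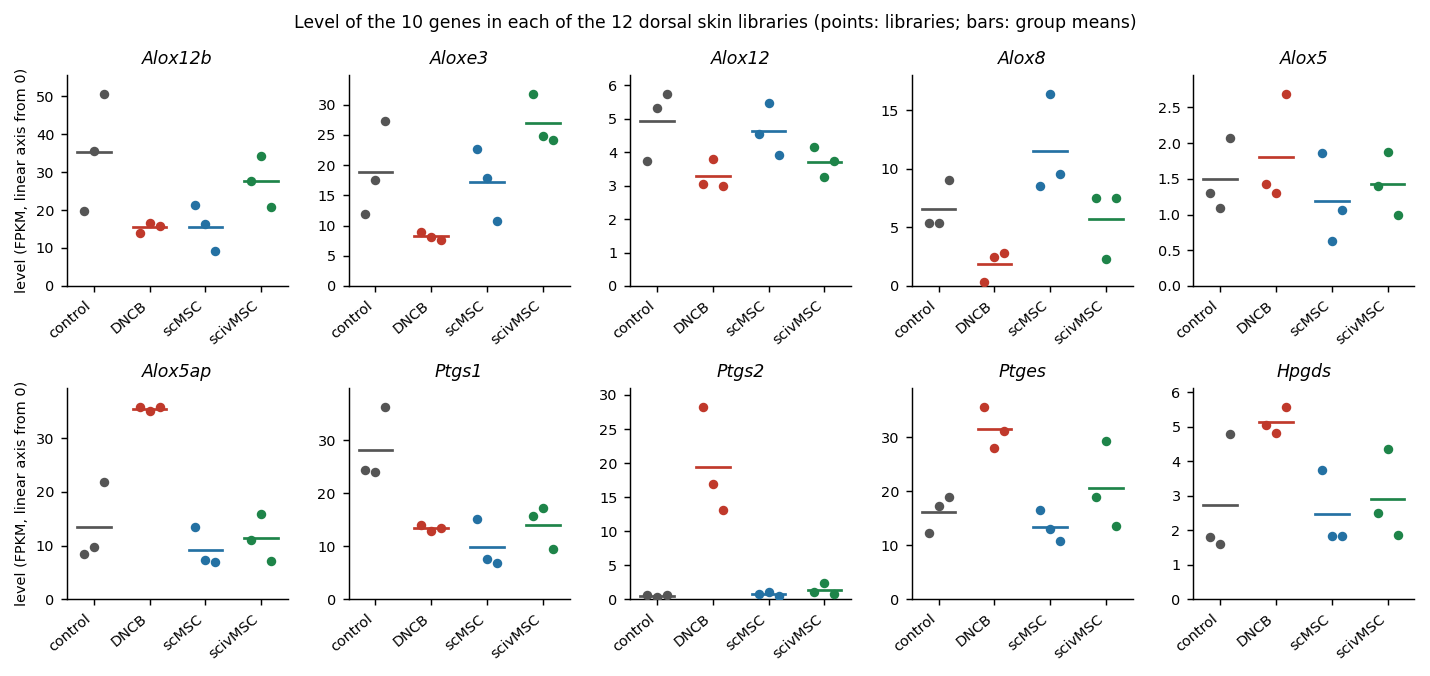
Level of each gene (FPKM, linear axis from 0) in the 12 libraries, by group, with 1 point for each library and a bar at the group mean. DNCB libraries sit below all others for Aloxe3 (7.54 to 8.98) and above all others for Alox5ap (35.0 to 35.8) and Ptgs2 (13.1 to 28.2), and control libraries sit above all others for Ptgs1 (24.0 to 36.3).

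DNCB skin had lower Alox12b and Aloxe3 and higher Ptgs2, Alox5ap and Ptges than control skin. In DNCB against control, 7 of the 10 genes were called, meaning an edgeR p of less than 0.05 after Benjamini-Hochberg adjustment over all tested genes. The 3 higher in DNCB were Ptgs2, Alox5ap and Ptges, and the 4 lower were Alox12b, Aloxe3, Alox12 and Ptgs1. Over all tested genes, 12.9% were called higher and 12.4% lower in this comparison. Of the other 3, Alox8 had an unadjusted p under the threshold only, and Alox5 and Hpgds did not pass. The median log2 fold change of the 10 genes was −0.33, beside 0.022 over all genes tested. Leaving out 1 library at a time moved the count of called genes to between 3 and 8. It was 3 without DNCB 1, 4 without control 2 or DNCB 3, and 7 or 8 without scMSC 1, scMSC 3, scivMSC 2 or scivMSC 3.

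Against the MSC groups, the same direction was called for Ptgs2, Alox5ap and Aloxe3. DNCB against scMSC gave 5 called genes, with Ptgs2, Alox5ap and Ptges higher and Aloxe3 and Alox8 lower, where 5.77% of all genes were called higher and 6.95% lower. The count fell to 3 without DNCB 2, DNCB 3 or scMSC 2. DNCB against scivMSC gave 3 called genes, Ptgs2 and Alox5ap higher and Aloxe3 lower, where 3.6% of all genes were called higher and 4.56% lower. The 3 comparisons share the DNCB libraries, so their values are not independent of each other.

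Against control, 2 genes were lower in scMSC, Alox12b and Ptgs1, and 1 was lower in scivMSC, Ptgs1. None was higher. Over all genes, 10.4% were called higher and 8.12% lower in scMSC, and 7.11% higher and 6.13% lower in scivMSC. Of all 21890 genes, 1 was called between scMSC and scivMSC (0.00457%), and it is none of the 10. With edgeR 0 of the 10 were called there, and likewise 0 with DESeq2. At an unadjusted p under 0.05 edgeR had 2, Alox12b at −0.80 ± 0.33 and Ptges at −0.59 ± 0.25 (log2 fold change ± SE, scMSC against scivMSC).

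**Figure D2:**
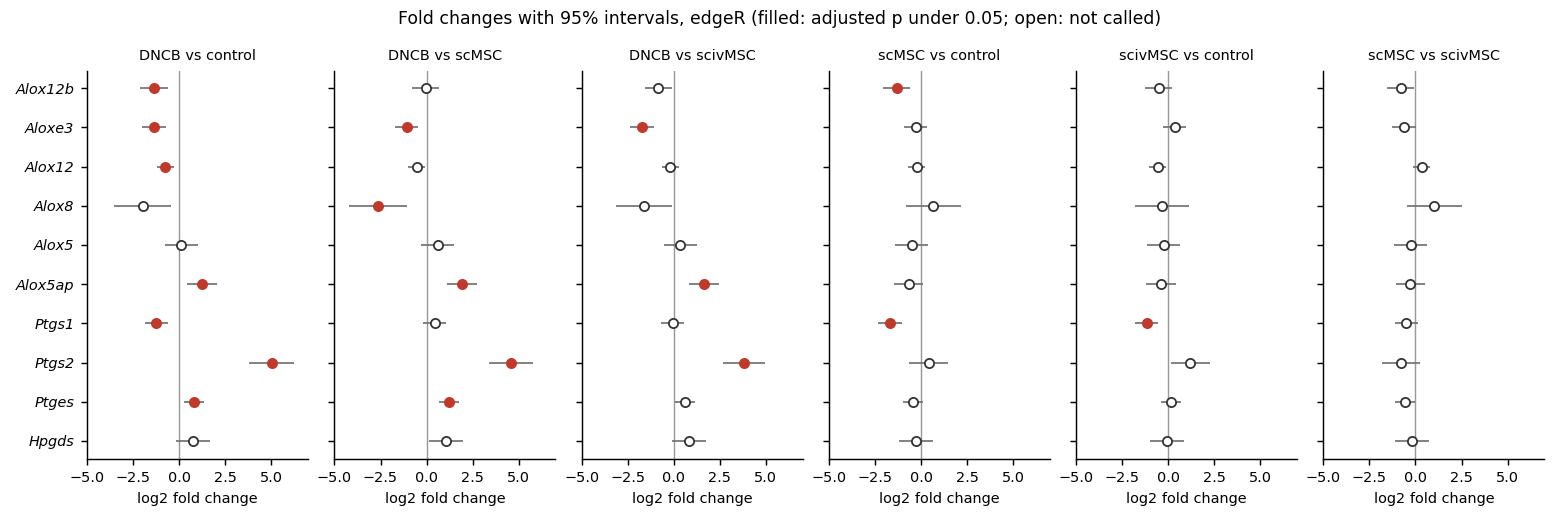
Log2 fold change of each gene in the 6 comparisons, positive where the first-named group was higher, with 95% intervals from edgeR over 3 libraries a group. Filled points were called at an adjusted p under 0.05 and open points were not. Ptgs2 has the largest estimates, from 3.82 to 5.02 in the comparisons of DNCB with the other groups, and no point is filled in scMSC against scivMSC.

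Alox12b, the first enzyme of the barrier pair, was at 19.9, 35.6 and 50.6 FPKM in the 3 control libraries and at 14.0, 16.5 and 15.9 FPKM in DNCB. It was at 21.3, 16.4 and 9.16 FPKM in scMSC and at 27.7, 34.4 and 20.9 FPKM in scivMSC. All DNCB libraries lay below all control and all scivMSC libraries, while the scMSC libraries spanned the DNCB range. Alox12b fell in DNCB against control by 1.36 ± 0.34 on the log2 scale (adjusted p = 0.0136) and in scMSC against control by 1.33 ± 0.34 (adjusted p = 0.021). DNCB and scMSC differed by −0.04 ± 0.33, with a 95% interval from −0.77 to 0.70. DNCB against scivMSC gave −0.84 ± 0.33 (adjusted p = 0.161), and scivMSC against control −0.53 ± 0.33 (adjusted p = 0.345). The first call was lost without DNCB 1 (adjusted p = 0.0534). The call for scMSC was lost without control 3, scMSC 2 or scMSC 3 (0.0505 to 0.0638) and when only these 2 groups were fitted (0.0844), a fit that called DNCB against scivMSC (0.0425).

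Aloxe3, the second enzyme of the pair, was at 11.9, 17.6 and 27.3 FPKM in control and at 8.98, 8.06 and 7.54 FPKM in DNCB. It was at 22.7, 17.9 and 10.8 FPKM in scMSC and at 31.8, 24.7 and 24.1 FPKM in scivMSC. Every DNCB library was below each of the other 9, and the MSC groups overlapped the control range. Aloxe3 fell in DNCB by 1.38 ± 0.30 against control (adjusted p = 0.00682), by 1.09 ± 0.29 against scMSC (adjusted p = 0.0342) and by 1.72 ± 0.30 against scivMSC (adjusted p = 0.00911), on the log2 scale. The calls against control and scivMSC held with any 1 of the 12 libraries left out. The call against scMSC was lost without control 2, DNCB 1, DNCB 2, DNCB 3, scMSC 1 or scMSC 2 (adjusted p from 0.0524 to 0.113) and in both limma fits (0.0588 and 0.062). Against control, Aloxe3 gave −0.29 ± 0.29 in scMSC and 0.34 ± 0.29 in scivMSC, and neither was called.

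The proportion of the 2 barrier genes to each other was not the same in all groups. Within a library, Alox12b stood at 1.67 to 2.03 times Aloxe3 (ratio of FPKM) in control and at 1.56 to 2.11 times in DNCB. It stood at 0.847 to 0.938 times in scMSC and 0.867 to 1.39 times in scivMSC. Every MSC library was below every control and DNCB library in this ratio, a comparison that was chosen after its values were seen and was not tested. Hair shaft and inner root sheath markers, 10 genes that mark growing hair, moved with the same split, at summed levels of 4.93 to 347 FPKM in control, 303 to 955 in DNCB, 6937 to 19610 in scMSC and 2595 to 6357 in scivMSC. All 10 of these markers rose in scMSC against control and 6 of 10 in scivMSC, beside 10.4% and 7.11% of all genes. In DNCB, 6 were lower than in scMSC and 3 lower than in scivMSC, beside 6.95% and 4.56%. Against control, 1 was higher in DNCB, beside 12.9%. None of the 10 was at 0 throughout a group. Their part in the ratio was not tested.

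Both barrier genes were also set beside the differentiated layer they belong to. The 8 suprabasal keratinocyte markers (Krt1, Krt10, Krtdap, Dsg1a, Dsc1, Lor, Flg2 and Ivl) summed to 4504 to 11006 FPKM in control, 6238 to 10304 in DNCB, 3963 to 8135 in scMSC and 6809 to 11525 in scivMSC. Of the 8, 2 fell in DNCB against control and none rose, beside 12.4% lower and 12.9% higher over all genes. Per 1000 FPKM of these markers, Alox12b was at 4.41, 4.49 and 4.60 FPKM in control and at 1.56, 1.60 and 2.55 in DNCB. In scMSC it was at 2.61, 3.32 and 2.31, and in scivMSC at 2.68, 2.98 and 3.07. On this scale all 6 MSC libraries lay below the control range, and the spread within control was smaller than in FPKM alone. Aloxe3 on the same scale was at 2.21 to 2.64 in control, 0.782 to 1.21 in DNCB, 2.73 to 3.62 in scMSC and 2.15 to 3.54 in scivMSC, so DNCB was again below all other libraries. These scaled levels were chosen after the values were seen and are given without a test.

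Alox12b lies at chr11:69156989-69169792 on the plus strand (GRCm38), between Aloxe3 at chr11:69125896-69149115 (plus) and Alox8 at chr11:69183932-69197843 (minus). No other annotated gene lies in the 71.95 kb from the first base of Aloxe3 to the last of Alox8. Within 250 kb on either side lie 35 further genes, of which 27 were tested. Of these 27, 3 were higher and 3 lower in DNCB against control, with a median log2 fold change of 0.17. Over all genes, 12.9% were called higher and 12.4% lower. The sequence before Alox12b is shown because this gene fell with its neighbour Aloxe3. It is the 167 bases upstream of the annotated gene (the 83 bases of the RefSeq window inside the gene are left out), chr11:69156822-69156988 on the plus strand (RefSeq promoter table, GRCm38.p6), with the GC box letters in capitals on the reverse strand.
Alox12b: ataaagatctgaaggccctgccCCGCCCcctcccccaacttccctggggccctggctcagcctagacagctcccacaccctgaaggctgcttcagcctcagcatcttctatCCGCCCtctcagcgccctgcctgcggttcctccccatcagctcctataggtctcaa

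Alox12 and Alox8 are the other epidermal lipoxygenases of the 10 genes. Alox12 (platelet-type 12-lipoxygenase, chr11:70241457-70255353, minus strand) was at 3.73, 5.31 and 5.75 FPKM in control and 3.06, 3.78 and 3.00 FPKM in DNCB. It was at 4.53, 5.47 and 3.92 FPKM in scMSC and 4.17, 3.25 and 3.73 FPKM in scivMSC. Control and DNCB overlapped in 1 library each. Alox12 fell in DNCB against control by 0.76 ± 0.21 on the log2 scale (adjusted p = 0.0207), a call that was lost without control 2, control 3, DNCB 1 or DNCB 3 (adjusted p from 0.0539 to 0.0753) and in both limma fits (0.0536 and 0.0559). Platelet markers, 5 genes that include Pf4 and Ppbp, summed to 49.4 to 60.8 FPKM in DNCB and 5.90 to 25.1 FPKM in the other 9 libraries. Of the 4 tested members 3 were higher in DNCB against control, beside 12.9% of all genes, and Gp9 was at 0 in DNCB. The part of platelets in Alox12 was not tested.

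Alox8, the 8S-lipoxygenase of mouse skin, was at 5.36, 5.38 and 9.02 FPKM in control and 0.311, 2.51 and 2.81 FPKM in DNCB. It was at 8.55, 16.4 and 9.57 FPKM in scMSC and 7.54, 2.26 and 7.49 FPKM in scivMSC. DNCB did not overlap control or scMSC, while scivMSC 2 fell inside the DNCB range. Alox8 fell in DNCB against scMSC by 2.66 ± 0.72 on the log2 scale (adjusted p = 0.0339). That call was lost without DNCB 2, DNCB 3, scMSC 2 or scMSC 3 (adjusted p from 0.0569 to 0.109) and when only these 2 groups were fitted (0.0778). DNCB against control gave −1.98 ± 0.70 (adjusted p = 0.0606), and this passed without scivMSC 2 (0.0469) and in DESeq2, both limma fits, the fit on genes of at least 1 FPKM and the fit on counts divided by 4 (0.00861 to 0.0465).

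Reads of closely related genes can be counted for one another. Cut into words of 50 bases, the annotated transcripts of Alox12b, Alox5, Alox5ap, Ptgs1, Ptgs2 and Ptges shared none with another gene. Alox8 shared 1.68% of its words, and Aloxe3, Alox12 and Hpgds at most 0.393%. None of the shared words lay in another gene of the lipoxygenase or cyclooxygenase families.

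Alox5, the enzyme that opens the leukotriene route, was at 1.3015, 1.09 and 2.08 FPKM in control and 1.43, 1.31 and 2.69 FPKM in DNCB. It was at 1.87, 0.634 and 1.07 FPKM in scMSC and 1.39, 1.88 and 0.992 FPKM in scivMSC. The 4 groups overlapped, and Alox5 was called in none of the 6 comparisons. DNCB against control gave 0.10 ± 0.41 on the log2 scale, with a 95% interval from −0.79 to 1.00.

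Alox5ap, which presents arachidonic acid to Alox5, was at 35.7, 35.0 and 35.8 FPKM in DNCB. It was at 8.48, 9.71 and 21.9 FPKM in control, 13.5, 7.38 and 6.94 FPKM in scMSC, and 11.1, 15.9 and 7.17 FPKM in scivMSC. Every DNCB library was above the other 9, the nearest of which was control 3. Alox5ap rose in DNCB by 1.25 ± 0.37 against control (adjusted p = 0.0291), by 1.92 ± 0.37 against scMSC (adjusted p = 0.008) and by 1.64 ± 0.37 against scivMSC (adjusted p = 0.0239), on the log2 scale. The call against scMSC held with any 1 library left out. The call against control was lost without control 1, control 2 or any 1 DNCB library (adjusted p from 0.0654 to 0.122), and the call against scivMSC without scivMSC 1, scivMSC 3 or any 1 DNCB library (0.0637 to 0.0883). Within a library Alox5ap stood at 13.3 to 26.7 times Alox5 in DNCB and at 6.51 to 11.6 times in the other 9.

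Neutrophil sums and macrophage and monocyte sums were both set beside Alox5ap. The 8 neutrophil markers summed to 198 to 263 FPKM in DNCB, 2.71 to 5.74 in control, 2.64 to 4.27 in scMSC and 4.78 to 17.9 in scivMSC. All 8 rose in DNCB against control, beside 12.9% of all genes. Ly6g and Cxcr1 were listed at 0 in the control, scMSC and scivMSC groups. The 8 macrophage and monocyte markers summed to 125 to 157 FPKM in DNCB and 38.0 to 134 in control. Only control 3 reached the DNCB range. In scMSC they summed to 31.1 to 98.0 and in scivMSC to 14.9 to 106, below every DNCB library. At the adjusted threshold 0 of 8 passed in DNCB against any other group. Before adjustment, the edgeR p was under 0.05 for 3 of 8 against scMSC, 3 against scivMSC and 0 against control. The median log2 fold changes were 1.42, 1.32 and 0.72 in that order. Outside DNCB, the library with the highest Alox5ap in each group (control 3, scMSC 1 and scivMSC 2) had the highest sum of both lists. Per 1000 FPKM of macrophage markers, Alox5ap was at 227 to 285 FPKM in DNCB and 163 to 246 in control. It was at 137 to 238 in scMSC and 140 to 483 in scivMSC, so all groups overlapped, and scivMSC 3, with the lowest sum, was above every DNCB library. What either cell type adds to Alox5ap was not tested.

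Ptgs1, the constitutive cyclooxygenase, was at 24.4, 24.0 and 36.3 FPKM in control and 14.0, 12.9 and 13.4 FPKM in DNCB. It was at 15.1, 7.57 and 6.81 FPKM in scMSC and 15.7, 17.2 and 9.46 FPKM in scivMSC. Every control library was above every DNCB-exposed library. Ptgs1 fell against control by 1.25 ± 0.28 in DNCB (adjusted p = 0.00912), by 1.68 ± 0.29 in scMSC (adjusted p = 0.00339) and by 1.18 ± 0.28 in scivMSC (adjusted p = 0.0216), on the log2 scale. The first 2 calls held with any 1 library left out, and the third was lost without control 3 or scivMSC 1 (0.0595 and 0.0561) and with scaling by library size alone (0.0502). DNCB against scMSC gave 0.44 ± 0.28 and was called only without scMSC 1 (adjusted p = 0.0395). DNCB against scivMSC gave −0.07 ± 0.28, with a 95% interval from −0.68 to 0.55.

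Ptgs2, the inducible cyclooxygenase, was at 28.2, 17.0 and 13.1 FPKM in DNCB. It was at 0.624, 0.316 and 0.650 FPKM in control, 0.722, 1.13 and 0.474 FPKM in scMSC, and 1.04, 2.35 and 0.759 FPKM in scivMSC. The lowest DNCB library was above the highest of the others, scivMSC 2. Ptgs2 rose in DNCB by 5.02 ± 0.55 against control (adjusted p = 0.000514), by 4.60 ± 0.54 against scMSC (adjusted p = 0.0018) and by 3.82 ± 0.52 against scivMSC (adjusted p = 0.00415), on the log2 scale. These correspond to 32.3-fold, 24.3-fold and 14.1-fold higher levels, and the calls held with any 1 library left out and in the 9 other settings. Against control, scMSC gave 0.41 ± 0.48 (adjusted p = 0.60) and scivMSC 1.19 ± 0.48 (adjusted p = 0.132). The 95% interval for scivMSC, 0.14 to 2.25, did not include 0 before adjustment over genes.

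The proportion of the 2 cyclooxygenases to each other was highest in DNCB. Within a library, Ptgs2 stood at 0.0132 to 0.0256 times Ptgs1 (ratio of FPKM) in control and at 0.978 to 2.01 times in DNCB. The MSC groups lay between, at 0.0478 to 0.150 times in scMSC and 0.0661 to 0.137 times in scivMSC, and no MSC library reached the range of either other group. The ratio was not tested. Neutrophil sums were higher in every DNCB library than in any other library, as was Ptgs2. In scivMSC 2, the library with the highest Ptgs2 outside DNCB, the neutrophil sum was 17.9 FPKM, also the highest outside DNCB. So were its sums of basal keratinocyte (5504), fibroblast (719) and stress keratinocyte markers (Krt6a, Krt6b, Krt16 and Krt17, 4581). Within scMSC, Ptgs2 and the stress sum (1453) were highest in scMSC 2, and the neutrophil sum (4.27) in scMSC 1. Within DNCB, DNCB 1 had the highest Ptgs2 and neutrophil sum (263) and the lowest stress sum (7079). The part of any of these cell types in Ptgs2 was not tested.

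**Figure D3:**
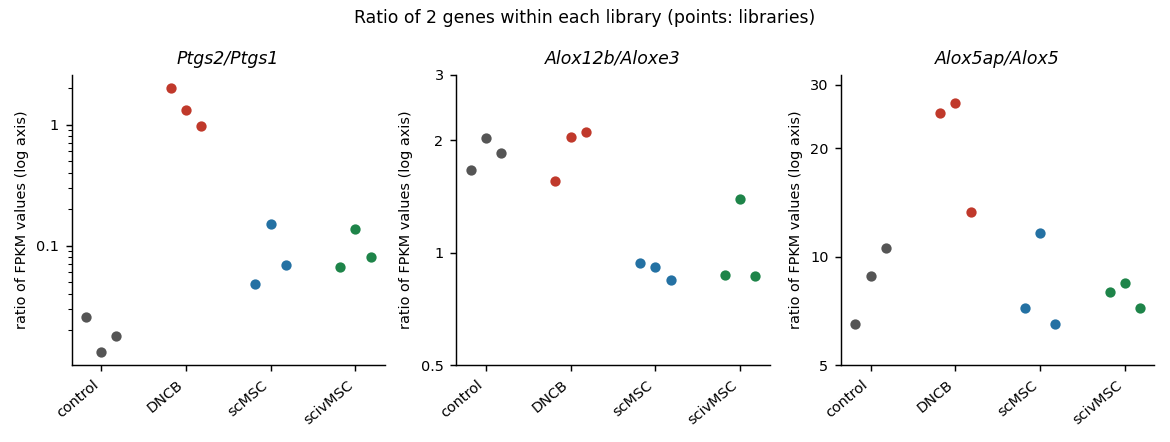
Ratio of the FPKM values of 2 genes within each library (log axes), by group, with 1 point for each library. Ptgs2/Ptgs1 is 0.978 to 2.01 in DNCB and at most 0.150 elsewhere, Alox12b/Aloxe3 is at least 1.56 in control and DNCB and at most 1.39 in the MSC groups, and Alox5ap/Alox5 is highest in DNCB.

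Ptges, the inducible microsomal synthase of prostaglandin E2, was at 35.6, 28.1 and 31.2 FPKM in DNCB and 12.2, 17.3 and 18.9 FPKM in control. It was at 16.6, 13.0 and 10.8 FPKM in scMSC and 18.9, 29.4 and 13.6 FPKM in scivMSC. DNCB did not overlap control or scMSC, and scivMSC 2 fell inside its range. Ptges rose in DNCB by 1.21 ± 0.25 against scMSC (log2 scale, adjusted p = 0.0111), a call that held with any 1 library left out. It rose against control by 0.79 ± 0.25 (adjusted p = 0.0402), but this was lost without any 1 of the control or DNCB libraries and without scMSC 2 or scivMSC 1 (0.0518 to 0.174), and with no filter on low values (0.0708). DNCB against scivMSC gave 0.62 ± 0.25 (adjusted p = 0.164) and was called without scivMSC 2 (0.0321). The 4 stress keratinocyte markers (Krt6a, Krt6b, Krt16 and Krt17) summed to 7079 to 8807 FPKM in DNCB, 484 to 553 in control and 683 to 1453 in scMSC. In scivMSC they summed to 1208, 4581 and 1152 FPKM, highest in scivMSC 2 as Ptges was. Neutrophil, basal keratinocyte and fibroblast sums were also highest outside DNCB in scivMSC 2. All 4 stress markers rose in DNCB against control, beside 12.9% of all genes, and none was at 0. The part of any of these cell types in the level of Ptges was not tested.

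Hpgds, the haematopoietic prostaglandin D synthase of mast cells, macrophages and other immune cells, was at 5.05, 4.81 and 5.57 FPKM in DNCB and 1.82, 1.61 and 4.80 FPKM in control. It was at 3.76, 1.84 and 1.84 FPKM in scMSC and 2.50, 4.35 and 1.87 FPKM in scivMSC. Every DNCB library was above the other 9, but control 3 lay just under DNCB 2. Hpgds was called in none of the 6 comparisons, with 0.75 ± 0.42 in DNCB against control (log2 scale, adjusted p = 0.223), which passed without control 3 (0.0325). The library with the highest macrophage sum was also the one with the highest Hpgds in each group, namely control 3, DNCB 3, scMSC 1 and scivMSC 2, while the lower 2 libraries of control and of DNCB were in the opposite order. Per 1000 FPKM of macrophage markers Hpgds was at 33.5 to 40.3 FPKM in DNCB and 35.7 to 47.8 in control, and scivMSC 3 stood apart at 126 with the lowest sum. The 8 mast cell markers summed to 102 to 120 FPKM in DNCB and 22.8 to 37.9 in control. In scMSC they summed to 54.8 to 121 and in scivMSC to 19.4 to 117. Of these 8 markers, 4 rose in DNCB against control, beside 12.9% of all genes. The part of either cell type was not tested.

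**Figure D4:**
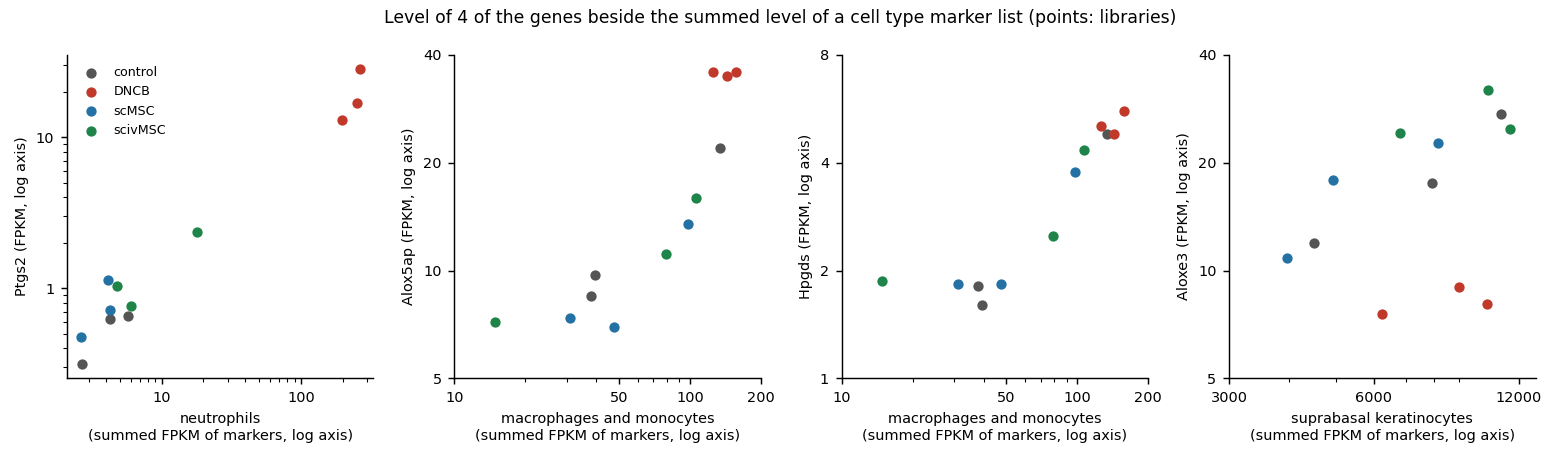
Level of Ptgs2, Alox5ap, Hpgds and Aloxe3 (FPKM) against the summed FPKM of a marker list, log axes, with 1 point for each library coloured by group. DNCB libraries stand apart on both axes for Ptgs2 and neutrophils (198 to 263 FPKM), control 3 lies beside DNCB for Hpgds and macrophages, and DNCB libraries have low Aloxe3 (7.54 to 8.98) at suprabasal sums inside the range of the other groups.

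The sequences before Ptgs2, Ptges and Ptgs1 are shown because the first 2 genes rose together in DNCB while the third fell. Each is the 250 bases before the RefSeq start (GRCm38.p6), which equals the transcription start of the gene in the deposited table: chr1:150099781-150100030 on the plus strand for Ptgs2, chr2:30903298-30903547 on the minus strand for Ptges and chr2:36230176-36230425 on the plus strand for Ptgs1. In GENCODE M21 the Ptges gene reaches to chr2:30929863, so its window lies inside that annotated gene, though in no annotated exon. Capitals mark matches to the C/EBP motif TTNNGNAA and the GC box GGGCGG on either strand.
Ptgs2: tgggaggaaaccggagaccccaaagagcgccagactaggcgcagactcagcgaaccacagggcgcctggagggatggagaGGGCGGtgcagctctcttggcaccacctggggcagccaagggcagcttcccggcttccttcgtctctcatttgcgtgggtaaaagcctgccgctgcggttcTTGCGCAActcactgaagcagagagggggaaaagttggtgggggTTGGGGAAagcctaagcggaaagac
Ptges: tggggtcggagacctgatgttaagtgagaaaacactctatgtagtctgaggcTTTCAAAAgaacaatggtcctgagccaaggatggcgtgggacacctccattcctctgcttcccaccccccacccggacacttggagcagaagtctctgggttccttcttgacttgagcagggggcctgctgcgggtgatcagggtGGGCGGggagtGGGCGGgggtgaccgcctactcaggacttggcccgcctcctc
Ptgs1: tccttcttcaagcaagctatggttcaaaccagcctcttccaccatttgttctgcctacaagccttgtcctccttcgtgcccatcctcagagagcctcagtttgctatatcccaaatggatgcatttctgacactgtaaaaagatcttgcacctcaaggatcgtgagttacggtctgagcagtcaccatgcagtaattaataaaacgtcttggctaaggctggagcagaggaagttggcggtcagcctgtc
The search covered both strands for 6 motifs, and the windows of 8 of the 10 genes were in the promoter table. The C/EBP motif was in 4 of the 8 windows and in 36.9% of 32851 promoter windows of this length. The GC box was in 6 of 8 and 32.7%. For Hpgds (minus strand) the RefSeq start lies at −178 bases from that of the deposited table, so part of its window is inside the gene. Both Hpgds matches to C/EBP, beginning at −176 and −144, lie in that part. AP-1 (TGANTCA), CRE (TGACGTCA), TATA box (TATAAA) and NF-kB matches were in 0 of the 8 windows, beside 6.75%, 1.55%, 12.4% and 7.25% of all windows. The Ptgs2 matches to C/EBP lay at −69 to −62, where the palindrome reads on both strands, and at −25 to −18 from the start. A match is a run of letters only. The Ptgs2 window overlaps exons of the antisense RNA Ptgs2os, which was at most 0.0862 FPKM in any library.

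Of the 10 genes, Alox5ap and Ptgs1 share exon bases with an annotated gene on the other strand. Alox5ap (chr5:149264767-149288153, plus strand) shares 189 of 1420 exon bases with Gm19719, which was at 0.011 to 0.305 FPKM. Ptgs1 (chr2:36230426-36252272, plus strand) shares 148 of 3884 with Gm43621, at 0.105 to 1.74 FPKM. Whether the counting used strand is not given in the sources used here, so reads from these stretches cannot be assigned to 1 strand.

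For each gene up to 3 tested genes with the most similar profile are given, taken by Pearson's r of log2(FPKM + 0.1) over the 12 libraries, as a description in which points share libraries and groups. Nearest to Alox12b were Lipn (r = 0.966), Sbsn (0.952) and Dmkn (0.951), genes of the upper epidermis. Nearest to Aloxe3 were Nlrp10 (0.966), Gpld1 (0.963) and Slco3a1 (0.963), and the r between Aloxe3 and Alox12b themselves was 0.702. Alox5ap came with Ncf4 (0.990), a subunit of the phagocyte NADPH oxidase, and with Slfn2 (0.984). Hpgds came with Ncf1 (0.967), Lipa (0.949) and Arhgap30 (0.948). Ptgs2 came with Plaur (0.990), the urokinase receptor, with the chemokine gene Ccl4 (0.988) and with Stx11 (0.985). Ptgs1 came with Psmb9 (0.980), an immunoproteasome subunit, B2m (0.965), the light chain of MHC class I, and Ifi27l2a (0.958). Ptges came with Slc25a48 (0.969), S100a11 (0.961) and Il13ra1 (0.961), and Alox12 with Pla2g3 (0.902), Clic3 (0.881) and Gm5884 (0.871). Alox8 came with Oser1 (0.931), Gpr157 (0.920) and Rnf208 (0.911), and Alox5 with Adam23 (0.906), Gimap5 (0.899) and Klhl13 (0.894).

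The rest of the eicosanoid pathway was followed in 68 further genes in 7 lists, of which 66 were tested. In DNCB against control 8 were higher and 15 lower, and their log2 fold changes had a median of 0.13, where the shares over all genes were 12.9% and 12.4%. DNCB against scMSC gave 10 higher and 9 lower (median 0.14), where 5.77% and 6.95% of all genes were called. DNCB against scivMSC gave 6 higher and 5 lower (median 0.0022), where the shares were 3.6% and 4.56%. In scMSC against control 7 were higher and 8 lower (median −0.23), where the shares were 10.4% and 8.12%. In scivMSC against control the counts were also 7 and 8 (median 0.015), where the shares were 7.11% and 6.13%. In scMSC against scivMSC 0 of the 66 were called by edgeR.

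**Figure D5:**
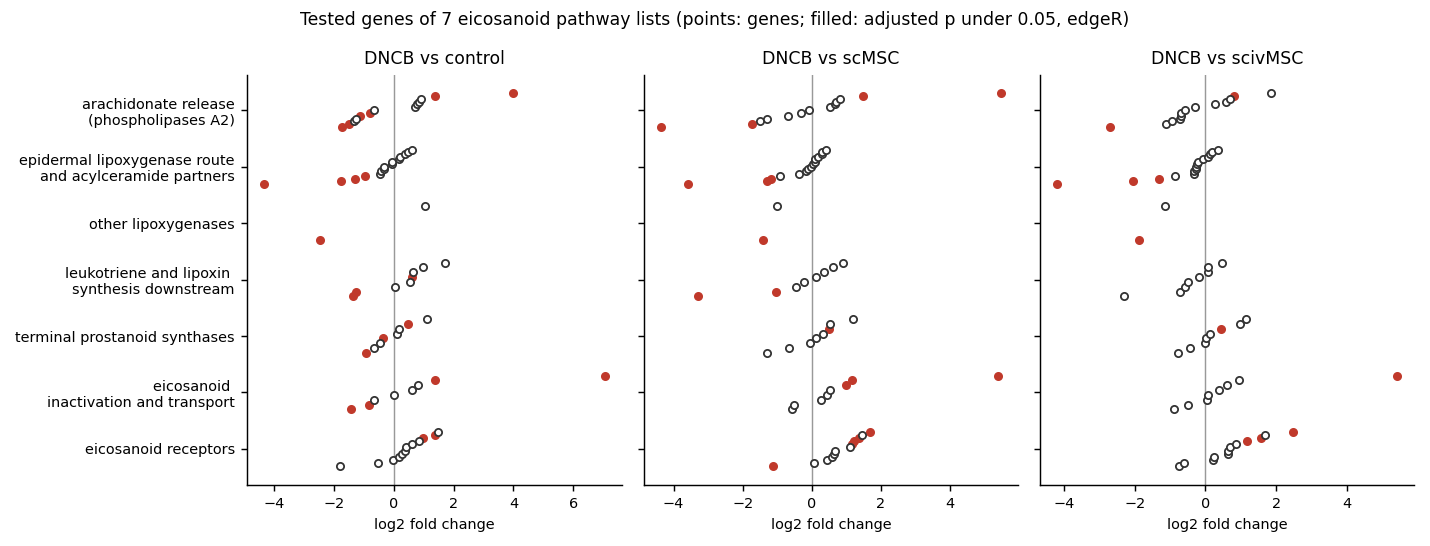
Log2 fold change of the 66 tested pathway genes in DNCB against control, scMSC and scivMSC, by list, with filled points for genes called at an adjusted p under 0.05 (edgeR). Cyp4f18 is the rightmost point of the inactivation list in each panel (7.06, 5.38 and 5.42), and Fa2h the leftmost of the epidermal list (−4.33, −3.58 and −4.19).

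Phospholipases A2 free arachidonic acid from membranes. Of the 13 tested, 2 rose and 4 fell in DNCB against control, beside 12.9% higher and 12.4% lower over all genes. Pla2g4e, a cytosolic form, was at 19.0 to 21.4 FPKM in DNCB and 6.57 to 7.25 FPKM in control, and rose by 1.39 ± 0.18 on the log2 scale (adjusted p = 0.000769). It also rose against scMSC by 1.49 ± 0.18 (adjusted p = 0.0018). Pla2g4d, another cytosolic form, was at 3.31 to 4.26 FPKM in DNCB and 0.123 to 0.332 FPKM in control (3.98 ± 1.11, adjusted p = 0.0236), a call lost without control 1, control 2, DNCB 1 or DNCB 2 (0.0514 to 0.0856). Pla2g4a, the best known cytosolic form, gave 0.76 ± 0.30 (adjusted p = 0.0932), and passed when only these 2 groups were fitted (0.0379). The secreted forms Pla2g2f, of the upper epidermis, and Pla2g12a fell by 1.15 ± 0.27 (adjusted p = 0.0103) and 1.499 ± 0.220 (adjusted p = 0.00127). Pla2g12a was also lower than control in scMSC (−1.41, adjusted p = 0.0023) and in scivMSC (−0.81, adjusted p = 0.0327). The scivMSC call was lost without control 1, control 2, scivMSC 1 or scivMSC 2 (0.0698 to 0.1155) and in 2 of 9 other settings (0.0645 and 0.113). Pla2g2e, named after its values were seen, was at 19.2 to 69.7 FPKM in scMSC and 1.34 to 2.68 FPKM in DNCB (DNCB against scMSC −4.37 ± 0.64, adjusted p = 0.00254). Hair shaft and inner root sheath markers summed to 6937 to 19610 FPKM in scMSC and 303 to 955 FPKM in DNCB. Of these 10 markers, 6 were lower in DNCB, beside 6.95% of all genes. Their part in Pla2g2e was not tested.

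Among 15 genes listed for the epidermal lipoxygenase route and its acylceramide partners, 0 rose and 4 fell in DNCB against control. The shares over all genes were 12.9% and 12.4%. Fa2h (fatty acid 2-hydroxylase) was at 3.11 to 8.83 FPKM in DNCB and 99.8 to 128 FPKM in control, and fell by 4.33 ± 0.51 on the log2 scale (adjusted p = 0.000611). Elovl4, which elongates the very long-chain fatty acids of acylceramides, fell by 1.76 ± 0.33 (adjusted p = 0.00355). Both also fell against scivMSC, by 4.19 ± 0.51 (adjusted p = 0.00319) and 2.04 ± 0.33 (adjusted p = 0.00705). The genes closest to the lipoxygenase step were not called in DNCB against control: Cyp4f39 gave 0.20 ± 0.19, Pnpla1 −0.42 ± 0.31, Sdr9c7 −0.08 ± 0.58 and Ephx3 −0.32 ± 0.21. Pnpla1 was called lower in DNCB against scMSC (−1.295, adjusted p = 0.0223), lost without DNCB 1, DNCB 2, DNCB 3 or scMSC 2 (0.0645 to 0.087). The 6 sebaceous gland markers were at summed levels of 12.2 to 27.8 FPKM in DNCB and 95.1 to 292 FPKM in the other 9 libraries. All 6 were lower in DNCB against control, beside 12.4% of all genes, and none was at 0. Their part in Fa2h and Elovl4 was not tested.

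Of the lipoxygenases outside the 10 genes, Alox12e, the epidermal 12-lipoxygenase, was at 34.0 to 48.8 FPKM in control and 5.34 to 12.0 FPKM in DNCB, a fall of 2.48 ± 0.39 on the log2 scale (adjusted p = 0.00167). Alox15 was at most 1.97 FPKM in any library and gave 1.04 ± 0.89 (adjusted p = 0.44).

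Downstream of Alox5, 1 of 8 genes rose and 2 fell in DNCB against control, beside 12.9% and 12.4% of all genes. Lta4h, which makes leukotriene B4, rose by 0.59 ± 0.10 on the log2 scale (adjusted p = 0.00241), from 4.95 to 5.47 FPKM in control to 8.46 to 9.13 FPKM in DNCB. It was also higher than control in scMSC, by 0.48 (adjusted p = 0.00926), and in scivMSC, by 0.53 ± 0.10 (adjusted p = 0.00924). Neither call was made when only the 2 groups compared were fitted (0.0537 and 0.0648). The scMSC call was also lost without control 2 or scMSC 2 (0.0553 to 0.0665). Mgst3, a microsomal glutathione transferase, fell by 1.36 ± 0.25 (adjusted p = 0.00314). Ltc4s, which makes leukotriene C4, gave −1.27 ± 0.41 (adjusted p = 0.0414), and this call was lost without any 1 of the control or DNCB libraries (0.053 to 0.130) and in 5 of 9 other settings (0.0527 to 0.0786).

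Among 8 further prostanoid synthases, 1 rose and 2 fell in DNCB against control, beside 12.9% and 12.4% of all genes. Ptges3, the cochaperone p23 that also has a prostaglandin E synthase activity, was at 22.3 to 24.6 FPKM in control and 35.2 to 39.7 FPKM in DNCB (0.47 ± 0.11, adjusted p = 0.0124), a call lost without control 1, control 3 or DNCB 3 (0.0512 to 0.0624). Ptges3 was also higher than control in scMSC (0.52, adjusted p = 0.0109) and in scivMSC (0.48, adjusted p = 0.0195). Both calls were lost in the fit of 2 groups alone (0.0547 and 0.083) and without some libraries (up to 0.0638 and 0.0917). Prxl2b, a prostaglandin F synthase, fell by 0.93 ± 0.22 (adjusted p = 0.0101) and, in scMSC against control, by 1.45 ± 0.22 (adjusted p = 0.00206). In scivMSC against control Prxl2b gave −0.95 (adjusted p = 0.0176), a call lost without scivMSC 1 or scivMSC 2 (0.0591 to 0.0684). Ptges2, Ptgds, Ptgis and Tbxas1 were not called, at −0.47, 1.09, 0.11 and 0.18, though Ptges2 passed without control 3 (0.0384) and Ptgds in both limma fits (0.0371 and 0.043). Ptgds, the lipocalin-type prostaglandin D synthase, was however at 13.9 to 36.2 FPKM in scMSC against 1.81 to 5.42 FPKM in control, a rise of 2.40 ± 0.50 (adjusted p = 0.0083). In scivMSC against control Ptgds gave 1.86 (adjusted p = 0.0309). That call was lost in 5 of 12 fits with 1 library left out (0.0559 to 0.0891) and in 2 of 9 other settings (0.074 to 0.087). The hair markers summed to 4.93 to 347 FPKM in control and 6937 to 19610 FPKM in scMSC, and their part in Ptgds was not tested.

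Eicosanoid inactivation and transport had 2 of 8 genes higher and 2 lower in DNCB against control, beside 12.9% and 12.4% of all genes. Cyp4f18, the leukotriene B4 hydroxylase of mouse neutrophils, was at 34.9 to 52.3 FPKM in DNCB and at most 2.54 FPKM in any other library. It rose by 7.06 ± 1.17 on the log2 scale against control (adjusted p = 0.00204) and by 5.38 ± 1.07 against scMSC (adjusted p = 0.00881), beside neutrophil sums of 198 to 263 FPKM in DNCB and at most 17.9 elsewhere. The part of neutrophils was not tested. Against scivMSC the rise was 5.42 ± 1.07 (adjusted p = 0.0148), lost without scivMSC 3 (0.0564). Slco2a1, a prostaglandin transporter named after its values were seen, rose by 1.38 ± 0.26 (adjusted p = 0.00384). Ephx1, the microsomal epoxide hydrolase, fell by 1.45 ± 0.20 (adjusted p = 0.00112). Ephx1 was also lower than control in scMSC (−0.946, adjusted p = 0.00946) and in scivMSC (−0.947, adjusted p = 0.0138). The scivMSC call was lost without scivMSC 2 (0.059). Hpgd, which inactivates prostaglandins, gave 0.81 ± 0.29 (adjusted p = 0.0682) and passed without scMSC 1 (0.0346) and in 5 of 9 other settings (0.034 to 0.0405).

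Of 12 tested receptors, 2 rose and 0 fell in DNCB against control, and 4 rose and 1 fell against scMSC. Over all genes, 12.9% were higher and 12.4% lower against control, and 5.77% and 6.95% against scMSC. The receptor Ltb4r1 for leukotriene B4 was at 16.2 to 19.4 FPKM in DNCB and 6.89 to 9.51 FPKM in control. It rose by 0.96 ± 0.19 against control (adjusted p = 0.00467) and by 1.36 ± 0.19 against scMSC (adjusted p = 0.00239), on the log2 scale. Ltb4r2, the low-affinity receptor, rose against control by 1.38 ± 0.35 (adjusted p = 0.0145), a call lost without control 2 or DNCB 2 (0.0671 and 0.0524). Of the prostaglandin E2 receptors, Ptger4 was at 2.59 to 3.63 FPKM in scMSC and 1.06 to 1.26 FPKM in control, a rise of 1.28 ± 0.22 (adjusted p = 0.0032), and was lower in DNCB than in scMSC by −1.12 ± 0.21 (adjusted p = 0.00745). Against control, Ptger4 was also higher in scivMSC (0.78, adjusted p = 0.0368). That call was lost in 7 of 12 fits with 1 library left out and in 3 of 9 other settings. Ptger3 was lower in scivMSC than in control by −1.20 ± 0.21 (adjusted p = 0.00737). In scMSC against control Ptger3 gave −0.70 (adjusted p = 0.0421), lost in 9 of 12 such fits and in 6 of 9 other settings. Ptger2 gave 1.48 ± 0.51 in DNCB against control (adjusted p = 0.0566) at no more than 0.526 FPKM, and passed without scMSC 1, scMSC 2, scivMSC 1 or scivMSC 3 (0.044 to 0.05) and in 7 of the 8 other settings that tested it (0.019 to 0.0479). Ptgir and Tbxa2r, receptors for prostacyclin and thromboxane, were named after their values were seen. Ptgir was higher in DNCB than in scivMSC by 2.47 ± 0.35 (adjusted p = 0.0048). It gave 0.25 in DNCB against control (adjusted p = 0.63) and was lower in scivMSC than in control (−2.21, adjusted p = 0.00546). Against scMSC it gave 1.23 (adjusted p = 0.0366), lost in 7 of 12 fits with 1 library left out. Tbxa2r was higher in DNCB than in scMSC by 1.68 ± 0.34 (adjusted p = 0.00947). Against scivMSC Tbxa2r gave 1.58 (adjusted p = 0.0203), lost in 4 of 12 such fits, and against control 0.85 (adjusted p = 0.0866).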

How the data were processed

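Dorsal skin RNA was measured in 12 libraries, 3 in each of 4 groups taken from the sample titles. The table deposited by the authors holds FPKM, scaled for gene length and library size, and estimated counts in whole numbers that are not normalized between libraries. The submitters' processing notes name Bowtie 0.12.2, HISAT2 2.0, StringTie 1.3.0 and the build mm8, with no role or order. Coordinates of the 10 genes equal GENCODE M21 on GRCm38 except the end of Ptges, so they are given as GRCm38. Ptges is on the minus strand, and GENCODE M21 places that end, its start of transcription, 26566 bases further out. Strandedness is not given in the sources used here. Low estimated counts step by about 4, which was taken as 1 fragment.

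A filter on low values kept the 21890 of 36400 genes whose mean FPKM was 0.1 or more. They were tested in R 4.3.3 by edgeR 4.0.16 (quasi-likelihood F-test), with TMM factors (0.887 to 1.06) and 1 model of 4 groups, without a covariate. The biological coefficient of variation common to all genes was 0.420. Calls used p-values adjusted by Benjamini-Hochberg over all genes tested, with a threshold of 0.05. Standard errors came from the F statistic and cover the spread between libraries. A single-gene exact permutation test of 3 against 3 cannot go below p = 0.10, so none is given. The scripts were tested on simulated data.

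The members and gene lists were chosen with earlier results of these data known. The text names the 10 genes, a list of pathway genes of direct relation to them, and up to 2 called genes of each pathway list with the smallest adjusted p in DNCB against control, plus the 3 genes most similar in profile to each of the 10, of which 1 is not reported here. Pla2g10 and Ptgdr2 were below the filter. Alternatives were DESeq2 1.42.0, limma 3.58.1 on log2(FPKM + 0.1) or log2(FPKM + 1), library size alone, other filters, 2 groups only, a replicate block, a threshold of 2-fold and each library left out; counts divided by 4 were added after seeing the data. Promoter sequences came from a RefSeq table of GRCm38.p6.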

Additional observations from a re-analysis of the deposited data

How the results depend on the processing

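Over the 60 fold changes of the 10 genes, each under 9 other settings and with each of 12 libraries left out, 1173 values kept their direction and side of the threshold, 50 lost a call, 11 gained one and 26 changed sign. Over the 78 fold changes of the other named genes, 1451 kept both, 141 lost a call, 25 gained one and 14 changed sign. Every sign change was of a value that was not called. With library size alone the median log2 fold change of all genes in DNCB against control moved from 0.022 to 0.20, so changes against control are relative to that shift.

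The number of the 10 genes called in scMSC against control was 1 when only these 2 groups were fitted, and in scivMSC against control it was 2 with DESeq2, where Alox12 was added, and 0 with library size alone. With a library left out the counts ranged from 3 to 8 (DNCB against control), 3 to 5 (DNCB against scMSC), 2 to 4 (DNCB against scivMSC), 1 to 2 (scMSC against control) and 0 to 1 (scivMSC against control, 0 without control 3 or scivMSC 1). Over all genes the calls ranged from 3811 to 5753, 1541 to 3038, 558 to 1982, 2317 to 4303, 1339 to 3079 and, between the MSC groups, 1 to 5. The 2-fold threshold left 3098 genes in DNCB against control, 2040 in scMSC against control and 1500 in scivMSC against control. Fitting 2 groups alone left 2131 genes in scMSC against control, 1103 in scivMSC against control and 3 between the MSC groups. DESeq2 called 3215 genes in DNCB against scivMSC and 138 between the MSC groups, and both limma fits called 2 there. The causes were not tested.

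Same-numbered libraries did not deviate together (r from −0.21 to 0.149 over 18 pairs), and 2 of 12 libraries correlated best with their own number, so the numbers were not taken as pairs. With the replicate number as a block, the calls in DNCB against scivMSC went from 1787 to 1179, and Sdr9c7 in DNCB against control became 0.012. Of the 10 genes, 4 calls were not made with the block, namely Alox5ap in DNCB against control and scivMSC (adjusted p = 0.0609 and 0.0571), Ptges in DNCB against control (0.0537) and Aloxe3 in DNCB against scMSC (0.072).

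Log2 fold changes that turned sign elsewhere were Alox12b in DNCB against scMSC (0.065 and 0.057 in the limma fits), Hpgds in scivMSC against control (0.084 with library size alone, 0.17 and 0.11 with limma), and, in DNCB against control, Sdr9c7 (0.074, 0.32 and 0.28) and Ptger3 (0.15, 0.13 and 0.10) in the same order. With a library left out, Alox12b ranged from −0.31 to 0.21 in DNCB against scMSC. Alox8 ranged from −0.65 to 0.050 in scivMSC against control. Alox5 ranged from −0.29 to 0.33, −0.048 to 0.57 and −0.70 to 0.0051 in DNCB against control, DNCB against scivMSC and scMSC against scivMSC. Alox5ap ranged from −0.69 to 0.064 in scivMSC against control and −0.61 to 0.012 between the MSC groups. Ptgs1 ranged from −0.27 to 0.077 in DNCB against scivMSC, Ptgs2 from −0.083 to 0.68 in scMSC against control and Ptges from −0.15 to 0.34 in scivMSC against control. Hpgds ranged from −0.68 to 0.27 in scMSC against control, −0.46 to 0.50 in scivMSC against control and −0.60 to 0.17 between the MSC groups. In DNCB against control, Sdr9c7 ranged from −0.46 to 0.74, Ptgis from −0.016 to 0.17, Tbxas1 from −0.22 to 1.02, Ptger3 from −0.14 to 0.087 and Ptgir from −0.067 to 0.47.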
